A study of Mus musculus with 8 samples.

Results

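Desmosomes are the spot-like junctions that bind keratinocytes to each other and give skin its resistance to pull and friction. The transcripts described here are the 10 genes of its cadherins and main plaque proteins, namely 4 desmogleins (Dsg1a, Dsg1b, Dsg2 and Dsg3), 3 desmocollins (Dsc1, Dsc2 and Dsc3) and 3 plaque genes (Dsp, Jup and Pkp1). They were taken by symbol from count files that each list 22609 gene symbols, and 10 of 10 were found and passed the filter on low counts. RNA was measured in paw tissue from 4 female and 4 male C57BL/6J mice. Both sexes carry the same label for treatment, 0.1 µg prolactin (PRL) for 12 days, which the labels' protocol describes as 1 injection into the sole per day. Prolactin is the pituitary hormone best known for lactation, and the series is about sex and lasting pain. Every library came from a prolactin-treated mouse, so there is no untreated background to set the values against. The sources used here do not give the age of the mice. The tissue is whole paw, which holds skin, muscle, connective tissue and vessels.

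In a desmosome, desmogleins and desmocollins span the membranes of neighbouring cells and bind each other in the gap between them. Inside the cell their tails hold plakoglobin (encoded by Jup) and plakophilins (Pkp1 among them), and desmoplakin (Dsp) ties this plaque to the keratin filaments. In stratified skin the cadherins are layered. Dsg3 and Dsc3 are known as the cadherins of the lower layers, desmoglein 1 and Dsc1 as those of the upper layers, and Dsg2 and Dsc2 as the pair of simple epithelia and heart muscle. The mouse carries the gene for desmoglein 1 in several neighbouring copies. In humans, desmogleins 1 and 3 are the targets of the autoantibodies of pemphigus, a blistering disease.

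The libraries held from 16753528 to 24993744 counts in genes, and the 10 genes together took 1.29 to 2.13% of them in females and 1.48 to 2.03% in males. Values below are CPM, the counts of a gene relative to its library's total, scaled between libraries by edgeR's TMM method. Summed, the 10 genes stood at 13747, 20041, 21215 and 12398 CPM in female replicates 1 to 4, against 19939, 15548, 17069.8 and 20255 CPM in male replicates 1 to 4. The females thus held both the lowest and the highest library, and the male range lay inside theirs. Basal keratinocyte markers (6 of 6 found) summed to 4027 to 5949 CPM in females and 4140 to 5565 CPM in males. Suprabasal keratinocyte markers (8 of 8 found) summed to 38044 to 56438 CPM in females and 51757 to 65418 CPM in males, so the label of a skin-bearing tissue held in 8 of 8 libraries. The 12 fast muscle markers ran from 28.9 CPM in female replicate 3 to 19922 CPM in female replicate 1, against 909 CPM in male replicate 4 to 27101 CPM in male replicate 2. Fibroblast markers (6) summed to 7093 to 16885 CPM in females, with female replicate 4 at the top, and to 10773 to 15283 CPM in males. Endothelial markers (6) reached at most 432 CPM in females against 417 in males, and hair follicle markers (8) at most 774 CPM in females against 434 in males. Macrophage and Langerhans cell markers (5 found) reached at most 586 CPM in females against 392 in males, and sweat gland and simple epithelium markers (7) at most 353 CPM in females against 389 in males. In whole tissue, fewer keratinocytes and less RNA per keratinocyte cannot be told apart.

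**Figure D1:**
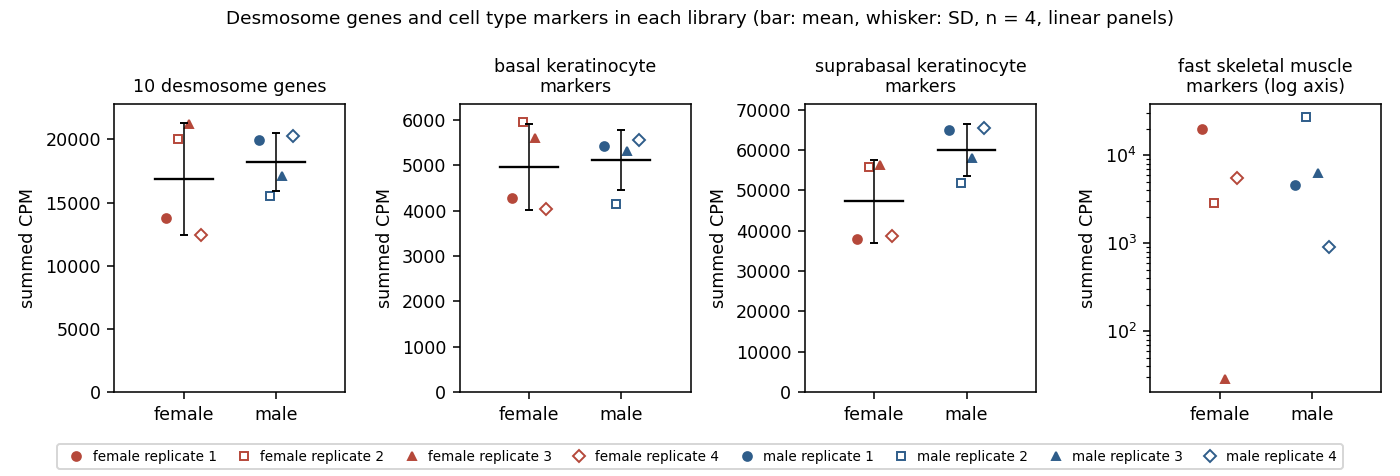
Summed CPM of the 10 desmosome genes and of 3 marker lists in each library, with female libraries left and male libraries right in every panel (bars are means and whiskers SDs of 4 libraries, not drawn for muscle, which has a log axis). The desmosome sum is lowest in female replicates 4 (12398 CPM) and 1 (13747 CPM) and in male replicate 2 (15548 CPM), and the muscle sum is highest in male replicate 2 and female replicate 1.

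The 3 plaque genes, Dsg1a, Dsc1 and Dsc3 were the abundant members, and Dsg3, Dsg2 and Dsc2 the rare ones. Levels can be compared between genes per length, here as CPM per kilobase of annotated exon (GENCODE M21), over the 8 libraries. Pkp1 led with 739.8 ± 138 CPM per kilobase (SD, n = 8), followed by Dsp with 581 ± 109.5, Dsg1a with 496 ± 109 and Dsc1 with 471 ± 107. Dsc3 had 223 ± 42.8 and Jup 219 ± 30.7 CPM per kilobase, and Dsg1b 70.8 ± 16.2. The other cadherins were far lower, with 8.68 ± 1.89 CPM per kilobase for Dsg3, 2.95 ± 0.658 for Dsg2 and 2.70 ± 0.757 for Dsc2. Each neighbour in that order overlapped the next across libraries, apart from the steps between Dsc1 and Dsc3, Jup and Dsg1b, Dsg1b and Dsg3, and Dsg3 and Dsg2. Compared within the same library, Pkp1 lay above Dsp and Dsp above Dsg1a every time. The other overlapping neighbours changed order between libraries. Per kilobase of the longest coding transcript, Jup stood at 439 and Dsc1 at 582, so the order within the upper 6 genes depends on the length used. The exon models come from a later build than the one used for counting.

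Among the desmogleins, Dsg1a supplied most counts in every library. It made up 88.5, 89.0, 89.4 and 89.6% of the counts of the 4 desmoglein genes in female replicates 1 to 4, against 88.0, 88.1, 87.7 and 87.9% in male replicates 1 to 4. Dsg1b made up 8.35, 8.37, 7.93 and 7.65% in the females, against 9.40, 9.58, 9.40 and 9.68% in the males. For both genes the shares of the sexes did not overlap. Both genes together made up nearly all desmoglein counts, so their shares mirror each other and are not separate results. The ratio of Dsg1a to Dsg1b given below rests on the same counts. Dsg3 held 2.02 ± 0.176% in females and 1.81 ± 0.204% in males, and Dsg2 0.792 ± 0.0778% in females and 0.747 ± 0.119% in males (SD, n = 4 each). In RefSeq's gene order the 7 cadherin genes stand in a row on chromosome 18, with Dsg1c and Dsg4 among them and no other coding gene between. The copies of the desmoglein 1 gene are alike in sequence. Of the 50-base windows of the Dsg1a transcript 35.0% occurred unchanged in a transcript of another gene, and of Dsg1b 48.9%, with Dsg1c and each other as the main partners, while for Dsg2 and Dsg3 the share was 0.122 and 0.130%. Reads that fit several places were listed apart as not unique, so part of the reads of Dsg1a and Dsg1b may be missing. How far this, or reads placed on the wrong copy, moves the level of either gene was not measured.

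Among the desmocollins, Dsc1 and Dsc3 made up nearly all counts. Dsc1 held 61.6, 63.6, 64.0 and 62.8% of desmocollin counts in female replicates 1 to 4, against 69.5, 68.0, 68.7 and 68.4% in male replicates 1 to 4. Dsc3 held 38.1, 36.1, 35.6 and 36.8% in the females, against 30.2, 31.7, 30.8 and 31.2% in the males. The highest female share of Dsc1 thus lay below the lowest male share. Dsc2 held 0.370 ± 0.0549% in females and 0.415 ± 0.0441% in males (SD, n = 4 each). None of the 50-base windows of the 3 desmocollin transcripts occurred in another gene's transcript.

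The level of no member differed between the sexes by the test across all genes. Of the 10 genes 0 were called by edgeR's quasi-likelihood test at an adjusted p under 0.05, against 0.0947% of the 14790 genes tested (0.0406% higher and 0.0541% lower in females). DESeq2 called 0 of the 10, against 0.317% of all genes higher and 0.334% lower in females, and limma-voom called 0. An unadjusted p under 0.05 was reached by 0 of the 10 in edgeR, against 6.53% of all genes tested (6.33% in DESeq2). The log2 fold changes (female over male) lay above 0 for 4 genes and below 0 for 6, with a median of -0.10, against a median of 0.01 over all genes. These signs are not firm, since those of Dsg1a, Dsg2, Dsc3 and Dsp turned when 1 library was left out (female replicate 2, 3 or 4, or male replicate 2 or 3, depending on the gene). The median over the members was -0.19 without female replicate 2, -0.19 without female replicate 3 and -0.17 without male replicate 2. It was -0.04 without female replicate 1, -0.05 without male replicate 1 and -0.06 without male replicate 4, and above 0 (0.01) without female replicate 4. For 0 of the 10 genes did female and male libraries stand apart without overlap, against 4.73% of all genes.

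Dsg1a stood at 2156, 3363, 3788 and 2081 CPM in female replicates 1 to 4, against 3028, 2358, 2579 and 3227 CPM in male replicates 1 to 4. Dsg1b stood at 203, 317, 336 and 178 CPM in the females and 323, 256, 277 and 356 CPM in the males. Both genes were low in female replicates 1 and 4, and the sexes overlapped. The log2 fold change was 0.03 (SE 0.22, edgeR adjusted p = 0.999) for Dsg1a and -0.23 (SE 0.22, adjusted p = 0.987) for Dsg1b. Dsg3, the lower-layer desmoglein, stood at 55.4, 73.8, 83.1 and 43.6 CPM in the females and 61.9, 45.7, 61.5 and 59.6 CPM in the males (0.16, SE 0.20, adjusted p = 0.999). For Dsg3, 3 of the males lay close together and male replicate 2 lay lower, and the sexes overlapped. Dsg2, which is widespread in epithelia, stood at 20.4, 27.3, 31.0 and 20.4 CPM in the females and 28.2, 15.2, 23.6 and 29.4 CPM in the males (0.04, SE 0.23, adjusted p = 0.999).

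Dsc1, the upper-layer desmocollin, stood at 1653, 2524, 2828 and 1526 CPM in female replicates 1 to 4, against 2892, 2243, 2438 and 2918 CPM in male replicates 1 to 4. Female replicates 1 and 4 lay below all males and the other females lay among them (log2 fold change -0.30, SE 0.22, edgeR adjusted p = 0.922). Dsc3, the lower-layer desmocollin, stood at 1022, 1434, 1571 and 893 CPM in the females and 1255, 1045, 1094 and 1331 CPM in the males (0.06, SE 0.19, adjusted p = 0.999). For Dsc3 the females enclosed the males on both sides. Dsc2 was the least abundant member, at 8.90, 12.7, 19.2 and 9.60 CPM in the females and 15.4, 12.7, 15.9 and 19.5 CPM in the males (-0.33, SE 0.25, adjusted p = 0.933). Female replicate 3 and male replicate 4 were its highest libraries, and the sexes overlapped. Its fold change on the log2 scale was -0.61 without female replicate 3, -0.20 without female replicate 1 and -0.22 without male replicate 4. With the muscle marker level of each library as a covariate, Dsc2 had a fold change of -0.56 on the log2 scale (SE 0.11, edgeR unadjusted p = 0.000690, adjusted p = 0.132) and Dsc1 one of -0.45 (SE 0.15, unadjusted p = 0.0194, adjusted p = 0.457). Dsg1b had one of -0.37 in that fit (SE 0.15, edgeR unadjusted p = 0.0415, adjusted p = 0.524). These were 3 of the 10 members with an unadjusted p under 0.05, against 9.17% of all genes, and 0 of the 10 were called, against 0.0541% of all genes higher and 0.0744% lower in females.

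Of the plaque genes, Dsp stood at 4501, 6481, 6802 and 3996 CPM in female replicates 1 to 4, against 6411, 4963, 5338 and 6439 CPM in male replicates 1 to 4 (-0.09 as log2 fold change, SE 0.20, edgeR adjusted p = 0.999). Pkp1, a plakophilin that clusters desmosomal proteins and is most abundant in the upper layers of skin, stood at 2886, 4202, 4221 and 2605 CPM in the females and 4368, 3331, 3779 and 4341 CPM in the males (-0.19, SE 0.19, adjusted p = 0.999). Jup, whose product also serves in adherens junctions, stood at 1239.8, 1608, 1535 and 1046 CPM in the females and 1555, 1277, 1465 and 1534 CPM in the males (-0.10, SE 0.16, adjusted p = 0.999). All 3 were lowest in female replicate 4, and the sexes overlapped.

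**Figure D2:**
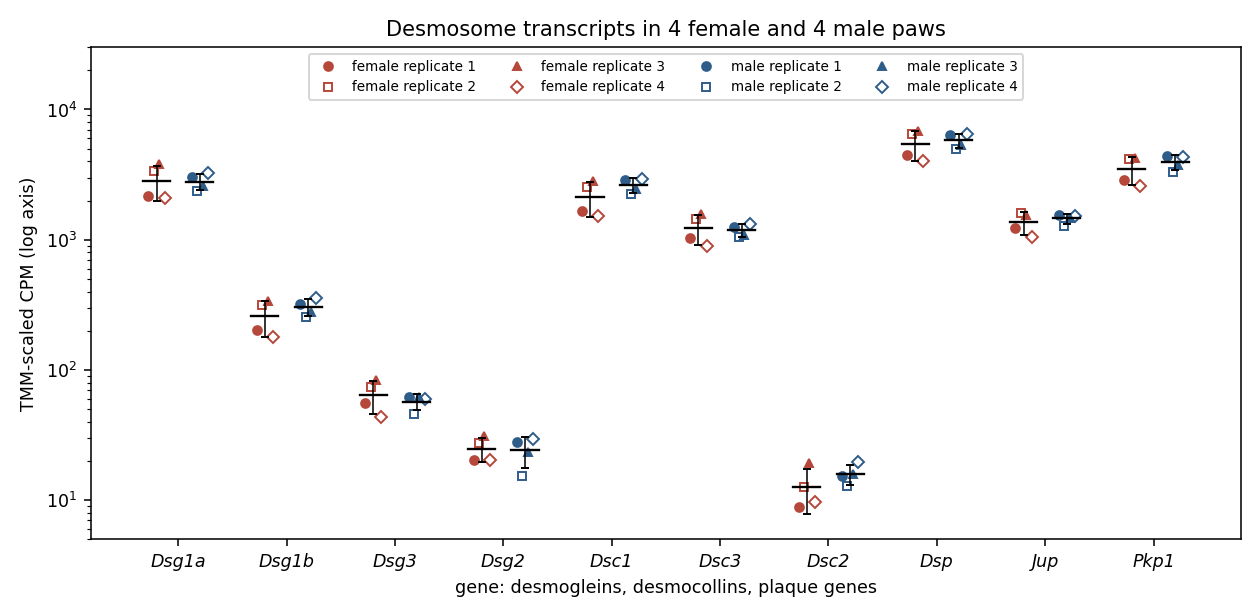
TMM-scaled CPM of the 10 genes on a log axis, 1 point per library, females left and males right of each gene, with the mean as a bar and the SD as a whisker (n = 4 each). The genes span from Dsc2, at 8.90 to 19.5 CPM, to Dsp, at 3996 to 6802 CPM, and the sexes overlap for every gene.

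The members varied together from library to library. Female replicate 4 was the lowest library for 8 of the 10 genes, and female replicate 3 the highest for 5. The highest library exceeded the lowest by 1.54-fold for Jup, the steadiest member, and by 2.19-fold for Dsc2. The coefficient of variation over the 8 libraries was 14.0% for Jup and between 18.7 and 28.0% for the other 9. Set against Dsp in the same library, the spread was smaller. Jup counted 27.5, 24.8, 22.6 and 26.2 per 100 Dsp counts in female replicates 1 to 4, against 24.3, 25.7, 27.4 and 23.8 in male replicates 1 to 4. Over the 8 libraries the coefficient of variation of these ratios to Dsp was 4.10% for Pkp1, 5.74% for Dsc3, 5.91% for Dsg1a and 6.93% for Jup. It was 7.12% for Dsg1b and 8.80% for Dsc1, and wider for the rare members, at 11.8% for Dsg3, 13.3% for Dsg2 and 16.6% for Dsc2.

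The start regions of Dsp, the gene the ratios are set against, and of Jup are shown because these were the 2 of the 10 genes matched in RefSeq's promoter table (GRCm38.p6). The lines give the 100 bases from 150 to 51 before the annotated start, 5′ to 3′ on the gene's strand, at chr13:38151144-38151243 (plus strand) for Dsp and chr11:100397841-100397940 (minus strand) for Jup. Capitals mark the letters GGGCGG on either strand, the GC box that Sp1-type factors can bind.
Dsp: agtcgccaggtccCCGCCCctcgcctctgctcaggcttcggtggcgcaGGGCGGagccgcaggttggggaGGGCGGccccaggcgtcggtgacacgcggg
Jup: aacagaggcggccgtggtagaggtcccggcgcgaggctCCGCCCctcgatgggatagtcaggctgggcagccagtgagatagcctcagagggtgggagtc
The window of Dsp held 3 matches and that of Jup 1, and 18.9% of the 27025 promoters in the table hold at least 1 in the same window. Neither window held the letters CCAAT (in 18.6% of all promoters), on either strand. The same was true of TATAAA, which is in 4.34% of all promoters. A site of Grainyhead-like factors, with the letters AACCGGTT, was in neither window and in 0.0444% of all promoters.

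Within a library, the balance between upper-layer and lower-layer desmocollin and between the copies of desmoglein 1 separated the sexes without overlap, though no ratio passed after adjustment. A ratio of counts from the same library does not depend on how libraries are scaled, and 6 such ratios were tested with a two-sided exact permutation test. The smallest p that 4 against 4 libraries allow is 0.0286, and 3 of the 6 ratios reached it. Over all genes tested, 2.29% separated the sexes in their ratio to Dsc3, 4.71% in that to Dsg1b and 2.91% in that to Dsp. Those genes come from every cell type in the paw, so these shares are not like for like. With 3 of 6 ratios at that p, the adjusted p is 0.0571 whatever the size of their differences. Dsc1 counted 1.62, 1.76, 1.80 and 1.71 per Dsc3 count in female replicates 1 to 4, against 2.30, 2.15, 2.23 and 2.19 in male replicates 1 to 4. All females thus lay below all males. The log2 difference, female minus male, was -0.37 (SE 0.04), or -22.4%, with an exact permutation p = 0.0286 (adjusted p = 0.0571). Counting error accounted for an SE of at most 0.0139 on the log2 scale in any library.

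The ratio between the copies of the desmoglein 1 gene also separated the sexes. Its counts carry the limit of shared sequence given above. Dsg1a counted 10.6, 10.6, 11.3 and 11.7 per Dsg1b count in female replicates 1 to 4, against 9.36, 9.20, 9.33 and 9.08 in male replicates 1 to 4. All females lay above all males, by 0.26 on the log2 scale (SE 0.04) or 19.5% (exact permutation p = 0.0286, adjusted p = 0.0571). Pkp1 counted 0.641, 0.648, 0.621 and 0.652 per Dsp count in the females and 0.681, 0.671, 0.708 and 0.674 in the males. All females lay below all males, with a log2 difference of -0.09 (SE 0.02) or -6.32% (exact permutation p = 0.0286, adjusted p = 0.0571).

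The other 3 ratios overlapped between the sexes. Upper-layer over lower-layer desmoglein (Dsg1a plus Dsg1b over Dsg3) was 42.6, 49.9, 49.6 and 51.8 in female replicates 1 to 4, against 54.1, 57.2, 46.4 and 60.2 in male replicates 1 to 4. Male replicate 3 lay among the females, and the log2 difference was -0.17 (SE 0.10, exact permutation p = 0.171, adjusted p = 0.257). The overlap rests on that library. Without it the difference was -0.24 (exact permutation p = 0.0571, the smallest possible then, adjusted p = 0.0857). Without female replicate 1 the difference was -0.10. Dsc2 over Dsc1 plus Dsc3 had a log2 difference of -0.17 (SE 0.13, exact permutation p = 0.257, adjusted p = 0.309). Dsg2 over the other desmogleins had one of 0.09 (SE 0.15, exact permutation p = 0.686, adjusted p = 0.686), and its sign turned without male replicate 2 (-0.03).

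**Figure D3:**
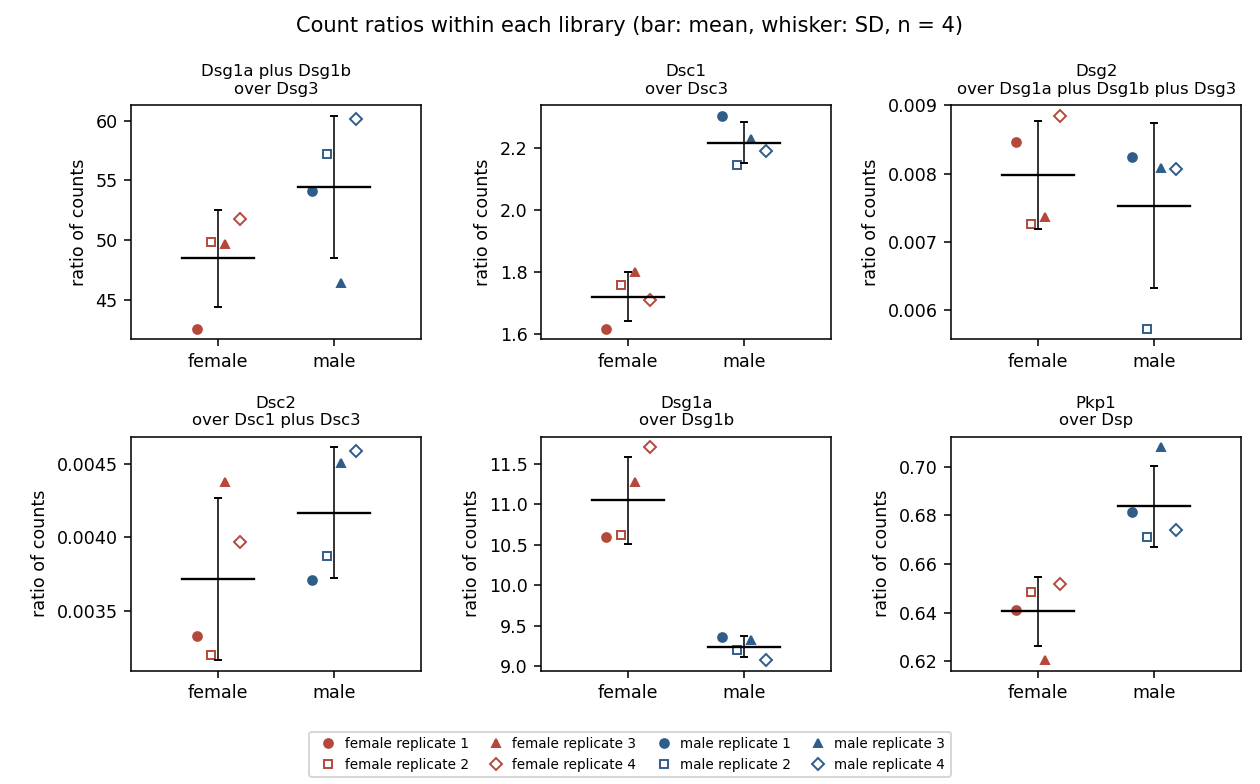
The 6 ratios of counts within a library, 1 panel each with its own linear axis that does not start at 0, females left and males right (bars are means, whiskers SDs, n = 4 each). Dsc1 over Dsc3, Dsg1a over Dsg1b and Pkp1 over Dsp separate all females from all males, and the other 3 overlap.

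Set against Dsp, 4 of the 9 other members separated the sexes without overlap, 3 lower and 1 higher in females. Over all genes tested, 2.91% separated in their ratio to Dsp, 0.548% lower and 2.36% higher in females. That background holds genes of every cell type in the paw. Dsc1 counted 36.7, 38.9, 41.6 and 38.2 per 100 Dsp counts in female replicates 1 to 4, against 45.1, 45.2, 45.7 and 45.3 in male replicates 1 to 4. The males lay within 1 count of each other and above every female. Dsg1b counted 4.70 ± 0.250 per 100 Dsp counts in females and 5.23 ± 0.204 in males, and Pkp1 64.1 ± 1.40 in females and 68.4 ± 1.68 in males (SD, n = 4 each). Dsc3 went the other way, with 22.7, 22.1, 23.1 and 22.3 in the females and 19.6, 21.1, 20.5 and 20.7 in the males. The other 5 overlapped. Dsg3 counted 1.17 ± 0.0669 in females and 0.991 ± 0.109 in males, and Dsg1a 51.9 ± 3.18 in females and 48.3 ± 1.30 in males. Dsg2 counted 0.460 ± 0.0368 in females and 0.411 ± 0.0697 in males, and Dsc2 0.229 ± 0.0415 in females and 0.274 ± 0.0311 in males. Jup averaged 25.3 in both.

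**Figure D4:**
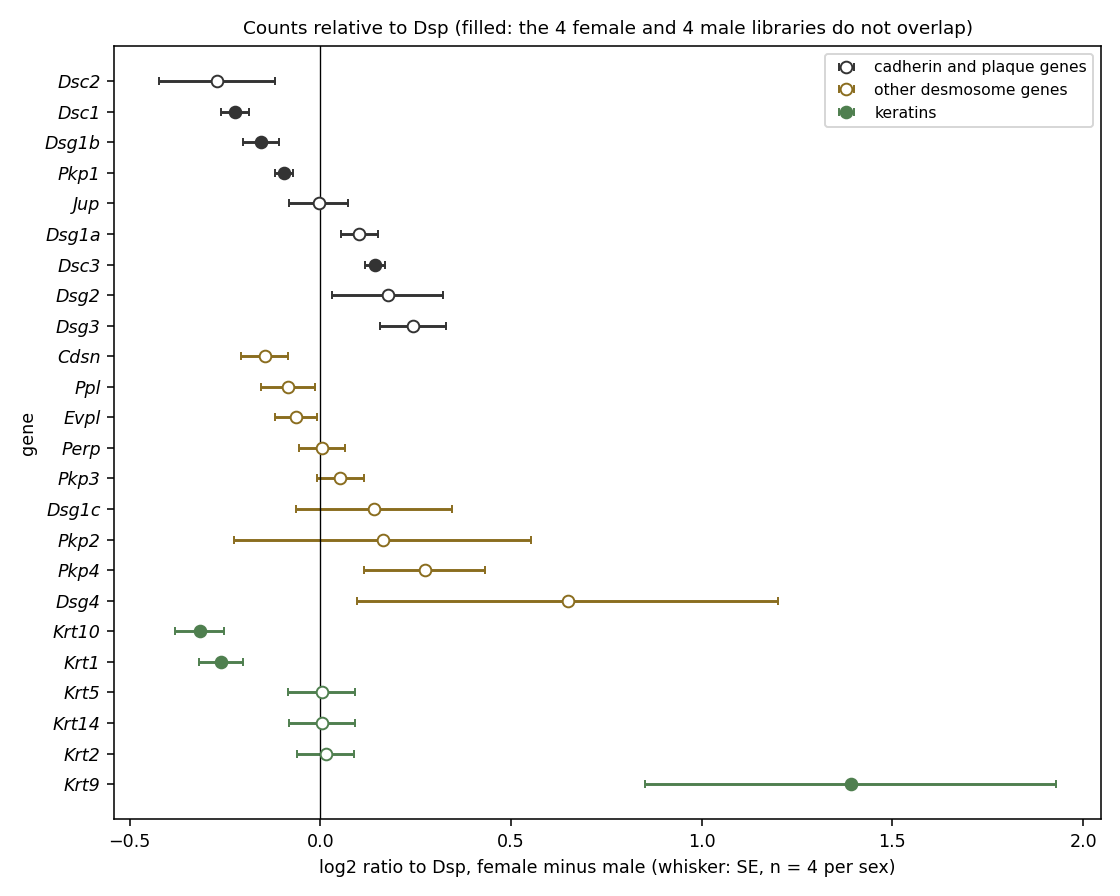
Difference between the sexes in the log2 ratio to Dsp (female minus male, whiskers are SEs, n = 4 per sex) for 9 members, 9 other desmosome genes and 6 keratins; filled points mark genes whose female and male libraries do not overlap. Dsc1 (-0.22), Dsg1b (-0.15) and Pkp1 (-0.09) lie below 0 and Dsc3 (0.14) above it, beside Krt10 (-0.32), Krt1 (-0.26) and Krt9 (1.39).

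Over all 45 pairs of members, 15 ratios separated the sexes. For single denominators over all genes tested, 2.91% separated in their ratio to Dsp, 2.29% in that to Dsc3 and 4.71% in that to Dsg1b. Those genes come from every cell type in the paw, while the members vary together, so the shares are not like for like. No share over pairs of other keratinocyte genes was worked out. Dsc1 entered 5 of the 15 pairs, and Dsg1b, Dsg3, Dsc3, Dsp and Pkp1 entered 4 each. Jup entered 0. In these pairs Dsc1, Dsg1b and Pkp1 were always the side that was lower in females, and Dsg3, Dsg1a and Dsc3 always the side that was higher. The widest separated difference was Dsg3 over Dsc2, at 0.51 on the log2 scale, followed by Dsg3 over Dsc1 at 0.47. The pairs share genes and libraries and were laid out after the values were seen, so they are a description.

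**Figure D5:**
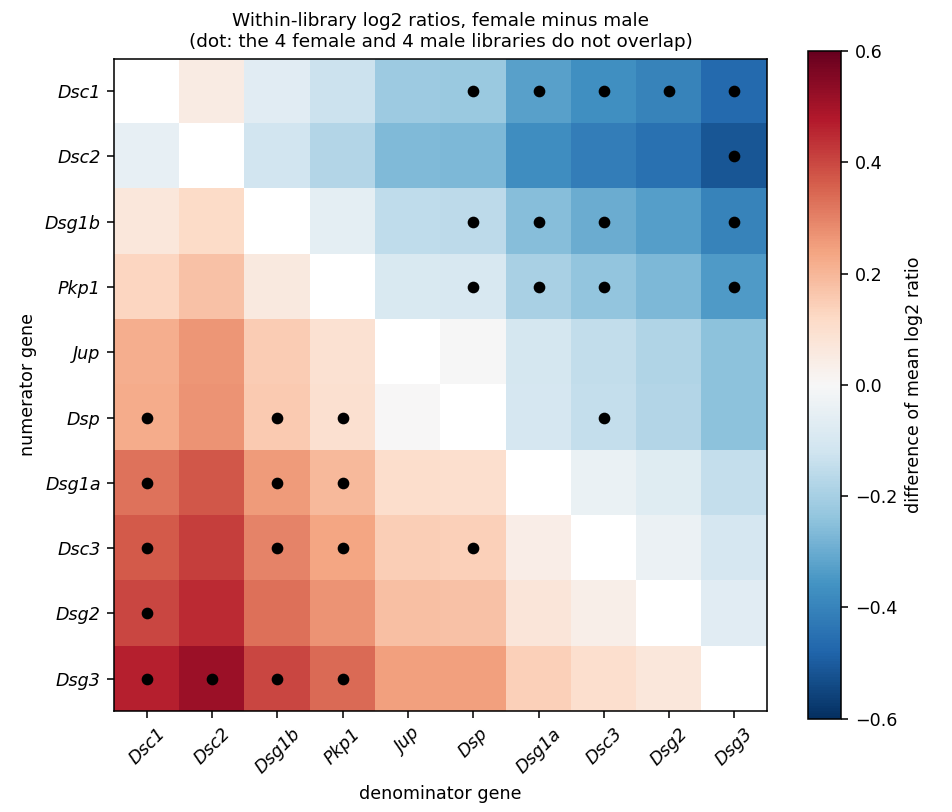
Difference between the sexes in the log2 ratio of every pair of members (row gene over column gene, female minus male; red is higher and blue lower in females, and a dot marks pairs whose libraries do not overlap between the sexes). The dots gather where Dsc1, Dsg1b or Pkp1 meets Dsp, Dsg1a, Dsc3 or Dsg3.

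Some of the keratins that attach at desmosomes separated the sexes in the same measure. It was worked out for Krt1, Krt2, Krt5, Krt9, Krt10 and Krt14, and not for the other keratins of the list. Over all genes tested, 2.91% separated in their ratio to Dsp, 0.548% lower and 2.36% higher in females. Per 100 Dsp counts, Krt10, a keratin of the upper layers, counted 452, 458, 428 and 522 in female replicates 1 to 4, against 559, 589, 595 and 567 in male replicates 1 to 4. Its partner Krt1 counted 166 ± 7.34 in females and 199 ± 12.95 in males (SD, n = 4 each), also without overlap. The basal keratins overlapped, with 31.9 ± 2.66 per 100 Dsp counts in females and 31.8 ± 2.88 in males for Krt5, and 39.5 ± 2.96 in females and 39.4 ± 3.73 in males for Krt14. Krt2, another keratin of the upper layers, overlapped too, with 586 ± 62.1 in females and 578 ± 12.1 in males. Krt9, the keratin of palm and sole skin, counted 32.6, 47.0, 35.5 and 28.5 in the females and 26.4, 5.42, 10.7 and 21.3 in the males, again with all females above all males. The part of these keratins' differences in the desmosome ratios was not tested.

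As levels, the keratins did not pass. Of the 11 keratins edgeR called 0, with 3 above 0, 8 below and a median log2 fold change of -0.10. Krt10 stood at 24995 ± 5078 CPM in females against 33336 ± 3454 in males (SD, n = 4 each; log2 fold change -0.42, SE 0.18, edgeR adjusted p = 0.754). Krt9 stood at 2015 ± 873 CPM in females against 977 ± 666 in males (1.04, SE 0.58, adjusted p = 0.841), and Krt1 had a fold change of -0.35 on the log2 scale (SE 0.24, adjusted p = 0.915). Of the 8 suprabasal markers, 7 lay below 0 (median -0.26) and 0 were called. Lor, the cornified envelope protein loricrin, stood at 1897, 2494, 2085 and 2047 CPM in female replicates 1 to 4, against 3049, 2771, 2924 and 2737 CPM in male replicates 1 to 4 (-0.43, SE 0.12, adjusted p = 0.511). All females lay below all males for Lor, while 4.73% of all genes separated in either direction. The suprabasal marker above 0 was Flg2 (0.68, SE 0.35, edgeR adjusted p = 0.810), whose libraries overlapped between the sexes.

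With the keratinocyte marker level of each library as a covariate, no member was called. The order of the members between the sexes was the same as in the ratios to Dsp. Both rest on the same counts, and the fit without a covariate gave nearly this order, so the likeness is no separate evidence. The covariate averages the basal and suprabasal markers. Of these, 3 of the 6 basal and 7 of the 8 suprabasal ones had log2 fold changes below 0, Krt1, Krt10 and Lor among them. The others lay above 0, with Flg2 the highest at 0.68. With the covariate, Dsg3 had a fold change of 0.27 on the log2 scale (SE 0.09, edgeR unadjusted p = 0.0120, adjusted p = 0.174). Dsc3 had one of 0.16 (SE 0.06, unadjusted p = 0.0343, adjusted p = 0.259) and Dsc1 one of -0.18 (SE 0.06, unadjusted p = 0.0199, adjusted p = 0.213). In that fit 3 of the 10 members and 16.6% of all genes had an unadjusted p under 0.05, and 0.372% of all genes were called higher and 0.277% lower in females. Dsp (0.02, SE 0.07) and Jup (-0.02, SE 0.07) lay at 0 within their SE. When every library was scaled to its own Dsp count, Dsc1 had a fold change of -0.22 on the log2 scale (SE 0.09, edgeR unadjusted p = 0.0313, adjusted p = 0.990). In that fit 3.12% of all genes had an unadjusted p under 0.05 (0.0338% were called higher and 0.0406% lower in females), and 0 of the 9 other members were called.

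Other desmosome genes gave no call either (0 of 9 in edgeR, 0 with an unadjusted p under 0.05; 3 above 0 and 6 below, median log2 fold change -0.05). Perp, a membrane protein that desmosomes of stratified epithelia need, was as abundant in counts as Dsp, at 5363 ± 1370.2 CPM in females against 5692 ± 813 in males (log2 fold change -0.09, SE 0.20, edgeR adjusted p = 0.999). Pkp3, a plakophilin of most epithelia, stood at 502 ± 104 CPM in females against 519 ± 57.6 in males, while Pkp2, the plakophilin of heart and simple epithelia, stood at 3.73 ± 0.543 CPM in females against 3.74 ± 1.24 in males. Pkp4, which is also found at adherens junctions, stood at 66.2 ± 4.29 CPM in females against 59.5 ± 5.62 in males (0.16, SE 0.09, adjusted p = 0.841). The plakins Ppl and Evpl, which become part of the cornified envelope, lay below 0, Ppl at -0.17 (SE 0.17, adjusted p = 0.987) and Evpl at -0.16 (SE 0.15, adjusted p = 0.986). Cdsn, the corneodesmosin of the outermost layers, lay at -0.24 (SE 0.16, adjusted p = 0.896). Dsg4, the desmoglein of the hair shaft, was highest in female replicate 3, with 4.71, 3.51, 12.0 and 4.16 CPM in female replicates 1 to 4 and 3.33, 1.60, 6.93 and 5.09 CPM in male replicates 1 to 4. Dsg1c, another copy of the desmoglein 1 gene, stood at 1.95 ± 0.283 CPM in females against 1.94 ± 0.439 in males, with 29.6% of its 50-base windows shared with other genes. Per 100 Dsp counts, 0 of these 9 genes separated the sexes.

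Neighbouring junction systems held no called gene. Of 8 adherens junction genes 6 lay above 0 (median log2 fold change 0.07). The smallest p fell to Ctnna1, the alpha-catenin that links cadherins to actin (0.14, SE 0.08, edgeR adjusted p = 0.824), to Vcl (vinculin; 0.22, SE 0.12, adjusted p = 0.824) and to Cdh1 (E-cadherin; 0.14, SE 0.18, adjusted p = 0.999). Of 9 hemidesmosome genes, which anchor basal cells to the basement membrane, 6 lay above 0 (median 0.13), led by Itga6 (0.13, SE 0.07, adjusted p = 0.793) and Col17a1 (0.31, SE 0.19, adjusted p = 0.868). Of 7 tight and gap junction genes 4 lay above 0 (median 0.04). Tjp1, a tight junction scaffold, had a fold change of 0.16 on the log2 scale (SE 0.09, adjusted p = 0.843), and the gap junction genes Gjb2 (-0.34, SE 0.20, adjusted p = 0.862) and Gjb6 (-0.36, SE 0.23, adjusted p = 0.881) lay below 0.

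Regulators of desmosomes gave no call among 12 genes (4 above 0, 8 below, median log2 fold change -0.04; 1 with an unadjusted p under 0.05). That gene was Egfr, the growth factor receptor whose signalling loosens desmosomes in cultured cells, at 108, 113, 118 and 103 CPM in female replicates 1 to 4 and 97.7, 96.0, 95.9 and 91.3 CPM in male replicates 1 to 4. All females lay above all males (0.21, SE 0.06, edgeR adjusted p = 0.594). Spink5, an inhibitor of the kallikreins that cut desmosomes during shedding, had a fold change of -0.39 on the log2 scale (SE 0.19, adjusted p = 0.793), and the kallikrein Klk5 one of -0.16 (SE 0.14, adjusted p = 0.980).

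The genes whose pattern over the 8 libraries was most like a member's were sought by Pearson's r of log2(CPM + 1) among 11895 genes with a mean of at least 5 CPM. For Dsp they were 9930012K11Rik (r = 0.992), Hr (0.991) and Ppfia3 (0.991). For Dsg1b they were Gltp (0.993), Tubb2c (0.989) and Ccdc64b (0.986). For Dsg3 they were Baz2a (0.994), Zkscan6 (0.984) and Mst1r (0.983), and for Dsg2 Sap30bp (0.985), Wdr48 (0.983) and 3110002H16Rik (0.978). These are descriptions over 8 libraries that share the same differences in tissue makeup.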

How the data were processed

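RNA from 8 paws was sequenced, and the authors deposited 1 file of raw read counts per gene symbol for each library. The tools named, per the submitters' processing notes, are TopHat2, HTSeq and bcl2fastq, and the build mm9. Their versions, the annotation and the strand setting were not stated. HTSeq's summary lines were left out. Reads in no feature were 18.0 to 21.2% of uniquely placed reads, and alignments that were not unique made up 45.2 to 48.7% of everything HTSeq listed.

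Female was compared with male by edgeR 4.0.16 in R 4.3.3 (filterByExpr, 14790 genes kept, TMM, robust quasi-likelihood test, Benjamini-Hochberg over all tested genes, calls at an adjusted p under 0.05). SEs are the log2 fold change over the root of its F statistic. The fit was also run on simulated counts, and the outcome is not reported here. The exact permutation test of ratios (scipy 1.17.1) was checked only on a fixed set of fully separated values with a known answer. Alternatives used DESeq2 1.42.0 and limma 3.58.1. Pairs of replicates of the same sex differed by a chi-square of at least 13.2 per degree of freedom (genes with at least 20 counts). Exon lengths and 50-base windows came from GENCODE M21 (mm10), so coordinates are given for the RefSeq sequences alone.

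Members and gene lists were chosen with earlier results of these data known. Named were all members, the 9 other desmosome genes, and the 3 genes of smallest p in each other list, of which 1 is not reported here. Krt2, Krt5, Krt14, Lor and Flg2, the ratios to Dsp other than that of Pkp1 and the table of pairs were chosen after their values were seen.

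Nothing in the labels says more on how the animals of a sex were kept apart, so p-values measure the spread between these libraries. Intervals from counts cover counting error alone. Groups given PBS, which the labels' protocol mentions, were not analysed here.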

Additional observations from a re-analysis of the deposited data

Results flagged for a closer look

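In 66 groups of 4 libraries of the same sex (33 measures: the levels of 19 desmosome genes, the 6 ratios and the 8 marker lists), 2 had a library far from the other 3, where chance flags about 1 in 20. Both fell to male replicate 2, which had the highest muscle marker sum. For Dsg3 its log2 CPM was 5.51, and those of its 3 fellow males were 5.90 to 5.95. The ratio of Dsg2 to the other desmogleins stood there at -7.45 on the log2 scale, against -6.95 to -6.92 in the other males.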

How the results depend on the processing

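Under every alternative run, 0 of the 10 genes were called in either direction. Over all genes, 6 were higher and 8 lower in females. These counts were 54 and 57 with DESeq2, 55 and 41 with the keratinocyte marker level as a covariate, 2 to 7 and 6 to 10 when 1 library was left out, and 19 higher when libraries were scaled to keratinocyte markers, a choice made after seeing the data, as was scaling to Dsp. Without female replicate 3 and male replicate 2 together, 5 were lower. With the replicate number as a block, 2 were higher and 5 lower, and the ratios of Dsc1 to Dsc3, Dsg1a to Dsg1b and Pkp1 to Dsp had an exact sign-flip p of 0.125, the smallest possible. To look for pairing, each gene's mean within a sex was taken from its log2 values. Same-numbered libraries then had correlations of -0.389 to -0.0841 over the genes tested. These deviations include large differences in tissue makeup, so whether the numbers pair the animals cannot be told from them.

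Several small fold changes turned sign, always without a call, and the cause was not tested. Dsg1a stood at -0.015 with limma-voom, -0.014 with the replicate block, -0.13 with the muscle covariate, -0.06 without female replicate 2, -0.14 without female replicate 3, -0.06 without male replicate 2, -0.01 without male replicate 3 and -0.23 without female replicate 3 and male replicate 2. Under the last of these, Dsg2 stood at -0.27, Dsg3 at -0.10 and Dsc3 at -0.15. With the muscle covariate Dsg2 stood at -0.085 and Dsc3 at -0.063. Leaving out 1 library put Dsg2 between -0.14 and 0.15, Dsc3 between -0.082 and 0.18 and Dsp between -0.21 and 0.031. Dsg2 reached -0.01 without female replicate 2 and -0.09 without female replicate 3, and Dsc3 -0.02 without female replicate 2 and -0.0048 without male replicate 2. Dsp stood at 0.020 with the keratinocyte covariate, and Dsp at 0.063 and Jup at 0.062 when scaled to keratinocyte markers.

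Leaving out 1 library kept the log2 difference of Dsc1 over Dsc3 between -0.39 and -0.34, of Dsg1a over Dsg1b between 0.23 and 0.28 and of Pkp1 over Dsp between -0.10 and -0.08. Taken as a difference of medians these 3 had exact permutation p = 0.0571, the smallest that medians allow here. With the sexes fully apart, exchanging the highest library of the lower sex with the lowest of the other leaves both medians unchanged. This p is thus fixed by the separation and cannot show whether the differences are weaker. As a difference of medians, Dsg2 over the other desmogleins turned to -0.0321. That ratio also turned without male replicate 2 (-0.0318), and stood at 0.14 at most when another library was left out. Dsc2, with 151 to 436 counts per library, is the member that depth limits most.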
